A study of Homo sapiens with 4 samples.

Results

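Integrins are cell surface receptors made of 1 alpha and 1 beta subunit that tie the matrix outside a cell to the cytoskeleton inside it. Here 10 integrin subunit genes were followed in human colon adenocarcinoma cells. They were ITGA2, ITGA3, ITGA5, ITGA6, ITGAV, ITGAE, ITGB1, ITGB4, ITGB5 and ITGB6, out of 18665 genes named on an Illumina bead array, and every probe annotated to one of them was taken, 23 of 48803 probes. The members were chosen on signals of these same arrays, in the contrasts described here, so their values are a description and none was tested. Alpha 6 pairs with beta 4 in the laminin receptor of hemidesmosomes, the junctions that anchor epithelial cells to the basement membrane through keratin filaments. Beta 1 pairs with many alpha subunits, among them alpha 2 (a collagen receptor), alpha 3 and alpha 6 (laminin receptors) and alpha 5 (a fibronectin receptor). Alpha V with beta 5 or beta 6 binds vitronectin, fibronectin or latent TGF-beta, and alpha E with beta 7 binds E-cadherin.

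There were 4 cultures with 1 array each: LvM3b over-expressing miR-483, LvM3b over-expressing miR-551a, an LvM3b control and Ls-Parental. LvM3b is known from published work as a derivative of a human colon cancer line selected for growth in the liver, and all 3 LvM3b cultures share that background. Ls-Parental is a colon cancer culture whose title and source name differ from its cell line entry, which reads LvM3b. The labels do not say what construct the control carried, nor whether a culture was a clone or a pool. The series title gives the first microRNA as miR-483-5p. MicroRNAs pair through a short seed with messenger RNAs and lower their level or translation. The mature miR-551a sequence is shown because it is the agent in 1 of the cultures, with its seed, bases 2 to 8, in capitals (RefSeq, GRCh38.p14, chr1:3560710-3560730, minus strand, 5′ to 3′).
miR-551a: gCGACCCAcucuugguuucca

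Across the whole series, 13861 to 14628 probes per array were detected, which here means a detection p under 0.01 against the array's background. A probe or gene called below background missed this cut, in some cases narrowly. Of 11 colon epithelial markers, 10 were detected on each LvM3b array, all but KRT20, and 11 on Ls-Parental. Their summed signal, in the authors' scaling, was 107079 to 109587 on the LvM3b arrays and 94035 on Ls-Parental. By gene the markers were mixed. In normalized values 7 were higher and 4 lower in the LvM3b control than in Ls-Parental, with a median log2 difference of 0.06. Leukocyte markers were below background on the LvM3b arrays for 7 of 7 genes and on Ls-Parental for all except CD14, and hepatocyte markers for 3 of 3 on every array. Among 7 fibroblast markers, 3 were detected on each microRNA array, 2 on the LvM3b control and 1 on Ls-Parental, and COL1A1 was on none. LUM had signals of 379.9, 417.9 and 463.8 on the miR-483, miR-551a and control arrays, against 145.1 on Ls-Parental, and COL3A1 had 173.0, 170.4 and 194.2, against 94.1. CD14 had 116.3, 117.8 and 131.1 on the LvM3b arrays, against 407.9 on Ls-Parental. LUM and COL3A1 were thus higher on the LvM3b arrays and CD14 lower. PDGFRA, the fibroblast marker detected on Ls-Parental, was not higher on the LvM3b arrays. Its normalized log2 levels were 6.67, 6.62 and 5.94 on the miR-483, miR-551a and control arrays, against 6.72 on Ls-Parental. These markers were named after their values were seen, and their part in the results was not tested. Of 4 endothelial markers, PECAM1 alone was detected, on the miR-483 array alone. With no replicate array, the number of arrays limits the precision, no value has an error estimate and no p-value was computed. Levels are log2 normalized signals, a difference is the first array minus the second, and "at least" marks a bound set by the detection limit of the dimmer array (log2 levels 6.13 to 6.38). Such a bound holds for the background-corrected values alone, and folds near background were smaller without that correction.

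Of the 10 subunits, 7 were detected on all 4 arrays, ITGB4 on 3, and ITGA5 and ITGB6 on none. ITGB4, which encodes the beta 4 subunit of the hemidesmosome, stood apart from the other members between the lines. The brightest of its 4 probes, ILMN_2334210, had a signal of 223.9 in the miR-483 culture, 204.1 in the miR-551a culture and 175.1 in the LvM3b control, against 488.1 in Ls-Parental. All 3 LvM3b arrays lay below Ls-Parental, and the control, at a detection p of 0.0119, narrowly missed the detection cut. The log2 levels were 7.05, 7.06 and 6.33 on the LvM3b arrays in that order, and 8.80 on Ls-Parental. In these values ITGB4 was at least 5.34-fold lower in the LvM3b control than in Ls-Parental (measured log2 difference -2.47), and the difference was -2.07 with an offset of 50, -1.69 without background correction and -1.60 in the authors' scaling. The miR-483 culture was 3.36-fold below Ls-Parental (-1.75) and the miR-551a culture 3.35-fold below (-1.75). In bulk RNA, fewer cells carrying the transcript and less transcript per cell cannot be told apart.

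**Figure D1:**
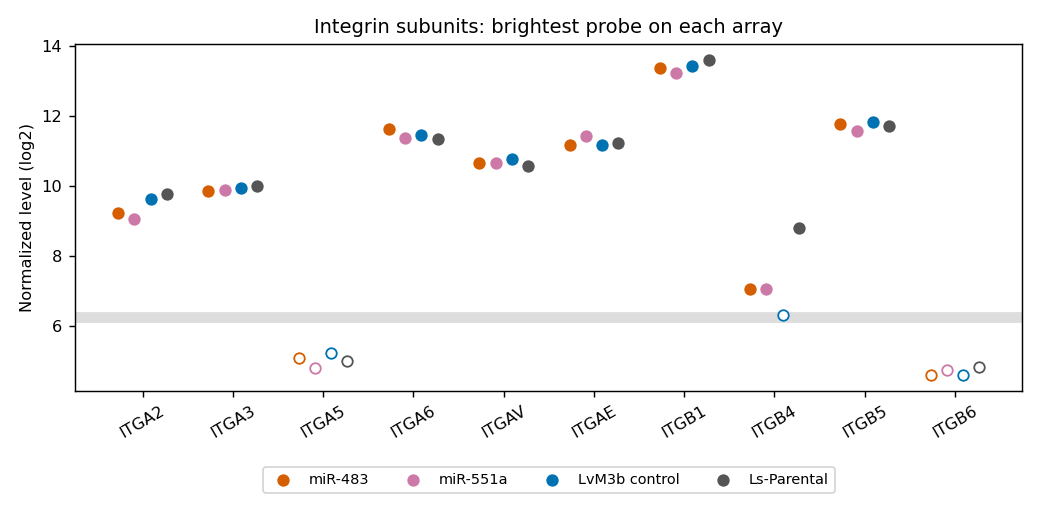
Normalized level (log2, vertical axis) of each subunit's brightest probe on each of the 4 arrays, filled where detected and open where not; the grey band spans the lowest detected levels, 6.13 to 6.38. ITGB4 is the subunit whose LvM3b points lie furthest from its Ls-Parental point, while ITGA5 and ITGB6 lie below the band on every array.

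A second ITGB4 probe, ILMN_2317543, gave the same direction between the lines. Its signal was 164.6 in the miR-483 culture, 151.5 in the miR-551a culture and 158.9 in the LvM3b control, against 309.1 in Ls-Parental. By this probe, relative to Ls-Parental, the level was lower by 3.23-fold in the miR-483 culture, by 3.13-fold in the miR-551a culture and by at least 2.92-fold in the LvM3b control. The other 2 probes, ILMN_1653965 and ILMN_2253707, were not detected on any array, and their signals lay between 91.0 and 125.4. In the authors' scaled values, without background correction, the brightest probe stood at 230, 227 and 175 on the miR-483, miR-551a and control arrays and at 531 on Ls-Parental, so that the control had 0.330 times the Ls-Parental value, and 0.472 times by the second probe. The size of the difference thus varied with the background correction, and its direction did not.

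**Figure D2:**
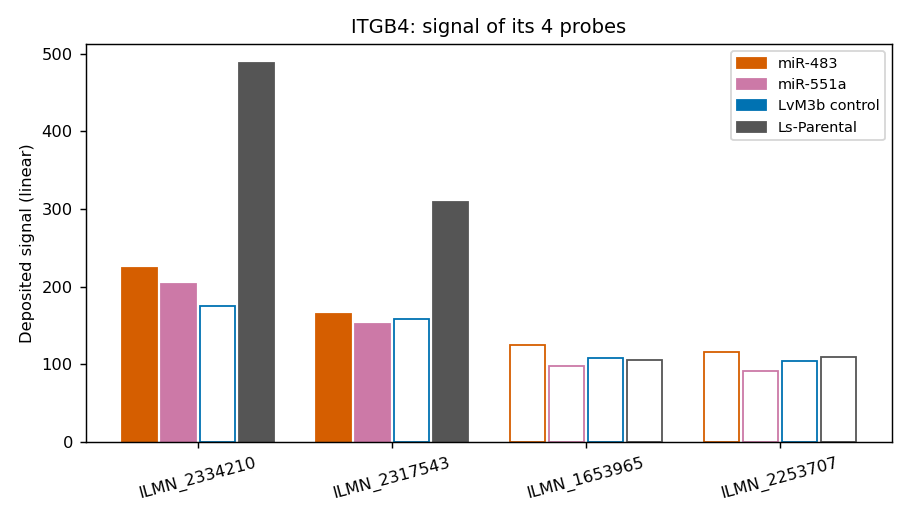
Deposited signal (linear, vertical axis, from 0) of the 4 ITGB4 probes on the 4 arrays; bars are filled where the probe was detected and open where it was not, and each bar is a single array. On the 2 brighter probes Ls-Parental, at 488.1 and 309.1, is the highest bar.

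Between the lines, 1 of the 8 detected members, ITGB4, was at least 1.5-fold lower in the LvM3b control than in Ls-Parental, and 0 were 1.5-fold higher. For scale, 7.57% of the 9817 genes detected on either array were 1.5-fold lower and 7.24% were 1.5-fold higher, and 5.61% were lower by that much when genes below background were set at their bound. The members' median difference was -0.05, beside -0.01 over all genes. On each of the 3 LvM3b arrays ITGB4 was at least 1.5-fold below Ls-Parental, as were 4.56% of 10095 genes detected on any array. For miR-483 over Ls-Parental, ITGB4 was the 1 member that was 1.5-fold lower, beside 8.7% of 9973 genes. For miR-551a over Ls-Parental there were 2, ITGB4 and ITGA2, beside 9.66% of 9940 genes. These comparisons share the Ls-Parental array.

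The alpha partner of ITGB4 did not move with it. ITGA6, the alpha 6 laminin receptor subunit, had signals of 3434.1, 2625.8 and 3137.3 on the miR-483, miR-551a and control arrays, against 2327.1 in Ls-Parental. Its log2 difference for the LvM3b control over Ls-Parental was 0.13, and that of a second probe detected on all 4 arrays was 0.17, so both lay slightly above Ls-Parental, in the direction away from ITGB4. The mean over its 3 probes, which includes an undetected one, gave -0.09.

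The alpha subunits ITGA3, ITGAV and ITGAE differed by 0.20 or less on the log2 scale between the LvM3b control and Ls-Parental. ITGA3, a laminin receptor subunit, had signals of 1066.7, 984.9 and 1148.6 on the miR-483, miR-551a and control arrays, against 987.2 in Ls-Parental, with a difference of -0.06 for the control over Ls-Parental. ITGAV, the alpha subunit shared by the RGD-binding receptors, had 1806.2, 1641.1 and 1971.7, against 1424.0 in Ls-Parental, a difference of 0.20. ITGAE, the alpha E subunit known from intraepithelial lymphocytes, had 2548.7, 2756.1 and 2580.0, against 2166.6 in Ls-Parental, a difference of -0.05. Deposited signals run higher on the control array as a whole, whose median was 115.4 against 106.0 on Ls-Parental. The differences come from background-corrected and quantile-normalized values. The authors' scaled values, which have the same median on every array, gave control over Ls-Parental ratios of 1.07 for ITGA3 and 1.09 for ITGAE. ITGA5, the fibronectin receptor subunit, had 115.7, 94.1 and 124.6 on the LvM3b arrays and 105.7 on Ls-Parental, all below background.

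Among the beta subunits other than ITGB4, ITGB1, the most widely shared partner, had signals of 11394.6, 9352.5 and 12278.2 on the miR-483, miR-551a and control arrays, against 10879.1 in Ls-Parental. Its difference for the control over Ls-Parental was -0.17, and -0.39 by a second probe detected on all arrays. ITGB5, a vitronectin receptor subunit, had 3790.6, 3026.9 and 3982.3, against 3052.4 in Ls-Parental, and its 3 detected probes differed by 0.10 to 0.16. ITGB6, an epithelial subunit known for activating TGF-beta, had signals of 89.4, 91.4 and 89.1, against 98.0 in Ls-Parental, all below background. The directions of these small differences depended on the scaling: the authors' scaled values, in which the median over all genes for the control over Ls-Parental moves to 0.10, gave 0.05 for ITGB1, 0.10 for ITGA3, 0.13 for ITGAE and 0.01 for ITGA2.

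The comparison of each microRNA culture with the LvM3b control addresses which transcripts are lower with the microRNA. ITGA2, the collagen-binding alpha 2 subunit, was the member furthest down in both. Its signals were 713.5 with miR-483 and 593.7 with miR-551a, against 944.3 in the LvM3b control and 861.4 in Ls-Parental. The miR-551a array was the lowest of the 4 and the miR-483 array the next. On the log2 scale ITGA2 differed by -0.41 with miR-483 (1.33-fold) and by -0.56 with miR-551a (1.48-fold), and neither passed 1.5-fold. Among all genes detected in each comparison, 4.46% were further down than ITGA2 with miR-483 and 2.41% with miR-551a. ITGA2 was read from 1 probe, and the 2 comparisons share the control array. Relative to Ls-Parental it was lower by 1.47-fold in the miR-483 culture (-0.55) and by 1.63-fold in the miR-551a culture (-0.71). In the authors' scaled values the miR-551a difference from Ls-Parental was -0.50, under 1.5-fold. The 2 microRNA arrays differed by 0.15 for miR-483 over miR-551a.

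ITGB4 lay on the other side. By its brightest probe the miR-483 culture was at least 1.59-fold above the LvM3b control (measured 0.72), and the miR-551a culture likewise at least 1.59-fold (measured 0.72). The control narrowly missed the detection cut, so both bounds rest on the detection limit of that array. By the second probe the differences were 0.21 and 0.25, and without background correction the brightest probe gave 0.40 in each, so the 1.5-fold call did not hold in either setting. ITGB4 was the only one of the 8 detected members at 1.5-fold or more with miR-483, where 1.7% of 9673 genes were 1.5-fold higher (0.724% with genes below background set at their bound) and 1.58% were lower. It was also the only one with miR-551a, where 2.03% of 9619 genes were 1.5-fold higher (0.946% at the bound) and 2.18% were lower. No member was 1.5-fold lower in either comparison.

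**Figure D3:**
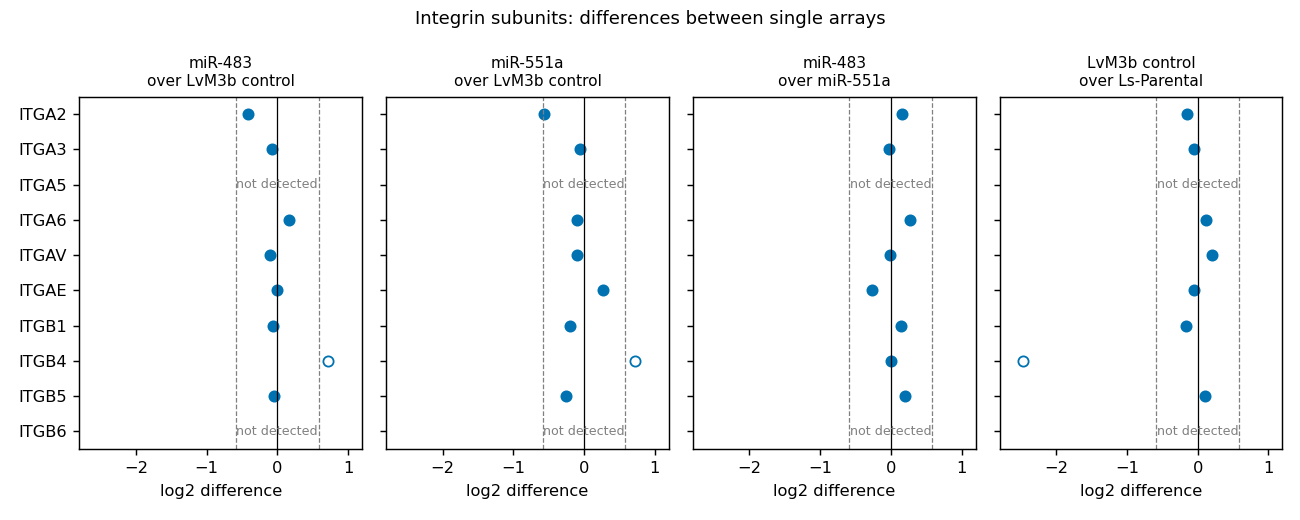
Log2 difference (horizontal axis) of each subunit in 4 comparisons of single arrays, with dashed lines at 1.5-fold; open points are genes below background on 1 of the 2 arrays. ITGB4, at -2.47, is far left for the LvM3b control over Ls-Parental and right of the line, at 0.72, for both microRNA cultures, and ITGA2 is the member furthest left with each microRNA.

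The remaining members differed little from the LvM3b control. With miR-483 their differences ran between -0.11 for ITGAV and 0.17 for ITGA6, and with miR-551a between -0.25 for ITGB5 and 0.26 for ITGAE. Members' medians were -0.06 with miR-483 and -0.10 with miR-551a, beside 0.01 over all genes in each case. The robust SD of all genes' differences (from the median absolute deviation) was 0.20 and 0.22 in these comparisons. Between the microRNA cultures, 0 of 8 members differed by 1.5-fold, where 2.95% of 9753 genes did in either direction. The widest member differences for miR-483 over miR-551a were 0.26 for ITGA6 and -0.26 for ITGAE.

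Where a member had several probes detected on all arrays, these showed how far a small difference can be read. For ITGA6 the probes gave 0.17 and -0.07 with miR-483, and -0.10 and 0.07 with miR-551a. For ITGB1 they gave -0.06 and 0.01 with miR-483, and -0.20 and 0.04 with miR-551a. Probes of both genes thus disagreed in sign. The 3 ITGB5 probes were all lower in both comparisons, by -0.26 to -0.05 with miR-483 and by -0.25 to -0.11 with miR-551a. For the LvM3b control over Ls-Parental the probes of each of these genes shared a sign in the normalized values. In the authors' scaled values the ITGB1 probes did not, with ratios of 1.04 and 0.875.

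**Figure D4:**
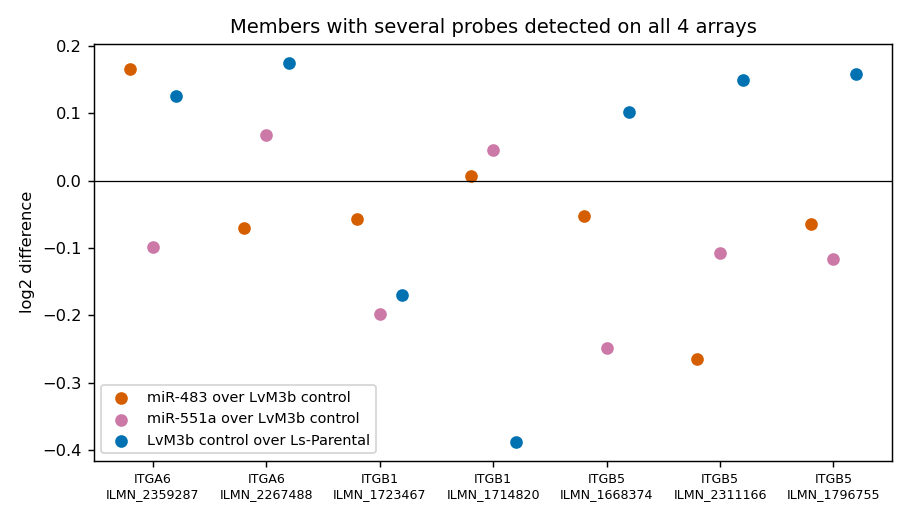
Log2 difference (vertical axis) of each probe detected on all 4 arrays for ITGA6, ITGB1 and ITGB5, in 3 comparisons. Probes of 1 gene differ in sign for ITGA6 and ITGB1 with the microRNAs, and share a sign for the LvM3b control over Ls-Parental in these normalized values.

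Of the 16 other integrin genes with a probe, 2 were detected on any array. ITGB7, the partner of ITGAE in the E-cadherin receptor, had signals of 294.5, 234.5 and 262.8 on the miR-483, miR-551a and control arrays, against 142.0 in Ls-Parental. There it narrowly missed the detection cut, at a detection p of 0.0119. In the background-corrected values it was at least 2.33-fold higher in the LvM3b control than in Ls-Parental (measured 1.37), opposite to ITGB4, and the difference was 1.02 with an offset of 50, 0.77 in the authors' scaling and 0.75 without background correction. It lay above Ls-Parental on all 3 LvM3b arrays, as 5.25% of genes did at 1.5-fold. ITGA1, a collagen receptor subunit, was close to the detection limit, with signals of 159.0, 130.4 and 182.6 on the LvM3b arrays, against 152.9 in Ls-Parental. The other 14 were below background on every array, among them, named for their roles, the leukocyte subunits ITGAL, ITGAM, ITGAX and ITGB2 and the alpha V partners ITGB3 and ITGB8.

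Genes around the receptors were read from lists. Of the hemidesmosome and tetraspanin partners, 6 were detected and none differed by 1.5-fold between the LvM3b control and Ls-Parental, where 14.8% of all genes did in either direction, a share at which 0 of 6 is no result about the list. CD151, a tetraspanin that binds laminin-receptor integrins, differed by -0.26 and CD81 by 0.16. Much of the hemidesmosome part of the list was not measured. DST, KRT5 and KRT14 were below background on every array, and COL17A1 was not among the genes named on the array. Of 5 detected laminin subunits, the ligands of alpha 6 beta 4, LAMC1 was 1.65-fold higher in the LvM3b control than in Ls-Parental (signals 1789.9 against 931.0). LAMB1 was 1.58-fold lower with miR-551a than in the control (1060.1 against 1826.1). For scale, 7.24% of all genes were 1.5-fold higher in the first comparison and 2.18% were 1.5-fold lower in the second. Of 8 detected other ligands, the matricellular genes CCN2 and CCN1 were 2.94-fold and 2.38-fold lower in the LvM3b control than in Ls-Parental, where 7.57% of all genes were 1.5-fold lower. In the authors' scaled values their log2 differences were -1.21 for CCN2 and -0.77 for CCN1. CDH1, the E-cadherin ligand of alpha E beta 7, differed by 0.29.

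Of 16 detected adaptors inside the cell, 12 were higher and 4 lower in the LvM3b control than in Ls-Parental, where 48.1% of all genes were higher, and their median was 0.20 beside -0.01 over all genes. There were 3 adaptors at 1.5-fold higher, a fold that 7.24% of all genes passed. NEDD9, a scaffold of focal adhesions, was 2.30-fold higher (signals 956.1 against 400.0), TNS4, a tensin, 1.97-fold (758.1 against 374.4), and PARVB, a parvin of the integrin-linked kinase complex, 1.91-fold (2273.0 against 1018.3). With miR-483 and miR-551a over the control the 16 adaptors had medians of -0.08 and -0.07, beside 0.01 over all genes in each case. None differed by 1.5-fold, where 3.28% and 4.21% of all genes did in either direction. At these shares 0 of 16 is no result about the list. Of 9 detected signalling kinases, MET was 1.55-fold higher in the LvM3b control than in Ls-Parental. FYN, a Src-family kinase named after its value was seen, had a signal of 273.8 in the LvM3b control, against 147.7 in Ls-Parental. There it narrowly missed the detection cut, at a detection p of 0.0119. Of 9 detected inhibitors and traffic genes, 2 were 1.5-fold lower in the LvM3b control than in Ls-Parental, beside 7.57% of all genes. With miR-551a over the control there was 1, beside 2.18% of all genes. The list's median for the LvM3b control over Ls-Parental was -0.06, beside -0.01 over all genes. NRP1, a co-receptor that traffics with integrins, was 1.76-fold lower in the LvM3b control than in Ls-Parental and 1.72-fold lower with miR-551a than in the control. RAB4A, a recycling GTPase, was 1.54-fold lower in the LvM3b control than in Ls-Parental, though by only -0.43 on the log2 scale in the authors' scaled values. NRP1 was -0.53 in that scaling, also under 1.5-fold, and for miR-551a over the control it was -0.49. With the mean over probes, PARVB in the LvM3b control over Ls-Parental (0.56) and LAMB1 in miR-551a over the control (-0.50) also fell short of 1.5-fold.

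**Figure D5:**
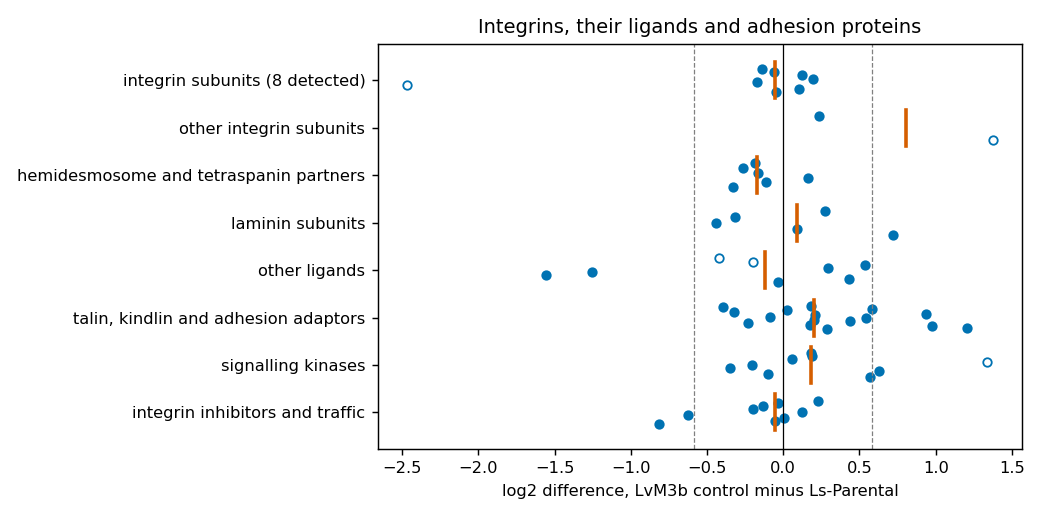
Log2 difference (horizontal axis), LvM3b control minus Ls-Parental, for detected genes of each list; orange bars are medians, dashed lines mark 1.5-fold and open points are genes below background on 1 array. The adaptors' median is 0.20 and that of the integrin subunits -0.05, with ITGB4 at -2.47.

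The profile of ITGB4 over the 4 arrays was set against those of 8889 genes detected on all of them, by Euclidean distance between log2 levels centred on each gene's mean. The 5 nearest were ELAPOR1 (distance 0.41), APCDD1 (0.42), DEFA6 (0.43), RNASE1 (0.44) and DUSP1 (0.51). These genes were picked for this likeness, so it is a description. The ITGB4 level in the LvM3b control that enters the distance itself missed the detection cut.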

How the data were processed

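Total RNA of 4 cultures was made into biotin-labelled cRNA, per the labels' protocols, and read on Illumina bead arrays, 1 per group. Groups followed titles and genotype labels. The authors deposited a probe signal, an intensity on a linear scale without normalization between arrays, and a detection score from 0 to 1, per the file headers; 1 minus the score was used as the detection p. The authors' second deposited table of intensities equals the first times 1 factor per array, found from the values. The software that made them was not given in the sources used.

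limma 3.58.1 in R 4.3.3 ran neqc: normexp correction for background, with the detection p-values as its guide and 16 added, then quantile normalization and log2. Of the probes, 27578 had 1 gene in the platform annotation, 13 had several and 21212 had none; 27541 matched RefSeq by gene number. A gene took the probe with the highest mean level. A gene entered a comparison if detected on at least 1 of its arrays, and was counted at 1.5-fold. A bound sets the bright level against the higher of the dim array's lowest detected level and the gene's own. Steps were tested on simulated arrays. The changed probes there lay well above background and changed by more than 1.5-fold, so that test does not cover folds near background. Alternatives were the authors' scaled values, no background correction, an offset of 50, a detection p under 0.05, the mean over a gene's probes and the 3 LvM3b arrays normalized alone. Members, lists and rules were chosen with earlier results of these data known. The named genes were all members and detected integrins, up to 4 genes per list and comparison at 1.5-fold and detected on both arrays (otherwise the 2 brightest), and the 5 genes nearest to ITGB4. The comparisons of microRNA cultures with Ls-Parental were added after seeing the data. No genomic positions of genes are given, since the files name no build.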

Additional observations from a re-analysis of the deposited data

How the results depend on the processing

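No paired analysis was possible because each group has 1 array. Among 264 recomputed differences of members, 245 kept their direction. Those with a detection p under 0.05 were bound to, since that cut changes which genes enter a comparison and not a member's difference. ITGB4 stayed lower than Ls-Parental in all LvM3b arrays. Its difference lay between -2.47 and -1.20 for the LvM3b control, -1.75 and -0.79 for miR-483, and -1.75 and -0.98 for miR-551a. The smallest came from averaging all 4 probes. The count of members at 1.5-fold, 1 for each microRNA over the control, became 0 with the authors' scaled values, without background correction, with an offset of 50 and with the mean over probes. For miR-551a over Ls-Parental it was 2, and 1 with the authors' scaled values.

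Counts of all genes at 1.5-fold depended on the background correction. With the authors' scaled values and without background correction they were 54 and 52 for miR-483 over control (otherwise 317), 105 and 102 for miR-551a over control (405), 39 and 35 for miR-483 over miR-551a (288), 922 and 823 for the LvM3b control over Ls-Parental (1454), 1015 and 912 for miR-483 over Ls-Parental (1692), and 1185 and 1100 for miR-551a over Ls-Parental (1873). With an offset of 50 the first 3 were 151, 205 and 110, and with a detection p under 0.05 they were 743, 866 and 660. The share of these genes that were higher was 51.7% for miR-483 over control and 48.1% for miR-551a over control, but 29.6% and 25.7% in the authors' scaling. Without background correction they were 26.9% and 29.4%. Over Ls-Parental it was 48.9% for the control, 48.7% for miR-483 and 48.7% for miR-551a, and 70.4%, 68.2% and 64.8% in the authors' scaling. Without background correction the shares over Ls-Parental were 53.2%, 51.1% and 49.1%, so the shift seen in the authors' scaling did not appear there. The causes were not tested. Signals near background, as for ITGB4 in LvM3b, limit the size of a fold.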
